A study of Mus musculus with 6 samples.

Results

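Macrophages were followed in mouse adrenal medulla after cardiac pressure overload through 10 genes widely used to recognise them. They are Csf1r, C1qa, C1qb, C1qc, Cd68, Mrc1, Cd163, Lyz2, Tyrobp and Cx3cr1, and they were chosen by name, through every probe set to which the platform's annotation gives 1 of these symbols and no other. That rule found 15 of the 45101 probe sets of the table, for all 10 genes. A probe set is a group of short probes that reads 1 transcript, mostly near its 3′ end.

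The tissue was adrenal medulla, the catecholamine-releasing core of the adrenal gland, dissected under a microscope from frozen sections of 12 µm. All animals were male C57/Bl6 mice, and their age is not given in the sources used here. One group of 3 mice had undergone transverse aortic constriction (TAC), in which the aortic arch is tied to a smaller width so that the left ventricle pumps against more pressure, and the other 3 mice a sham operation, in both cases 8 weeks before the medulla was taken. RNA from both medullae of 1 mouse, amplified over 2 rounds, went onto each of the 6 Affymetrix Mouse Genome 430 2.0 arrays, so the 3 arrays of a group are 3 animals. Levels are log2 intensities, differences are the TAC mean minus the sham mean of such levels, SD is the spread between the 3 arrays of a group, and SE and 95% intervals come from the limma fit over all 18188 tested probe sets.

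Macrophages live in most tissues and clear dead cells and debris. Csf1r is the receptor for the growth factors on which their survival depends, and the transcription factor PU.1, the product of Spi1, drives much of their gene expression. C1qa, C1qb and C1qc encode the 3 chains of C1q, the recognition molecule of the classical complement pathway, which tissue macrophages are known to produce. The 3 C1q genes are neighbours on mouse chromosome 4. Mrc1 and Cd163 encode scavenger receptors of tissue-resident macrophages, Cd68 a glycoprotein of their lysosomes, Lyz2 a lysozyme, Tyrobp a signalling adaptor and Cx3cr1 a chemokine receptor.

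Because PU.1 binds DNA around the letters GAGGAA, the 250 bases before the RefSeq start of each gene were searched for GAGGAA on both strands (TTCCTC on the strand shown). RefSeq promoter sequences of build GRCm38.p6 were used for 7 of the 10 genes, and not for Csf1r, C1qa and Tyrobp. The search of the 10 genes left out a chromosome that the count over all windows kept. A gene on that chromosome may therefore still have a promoter entry. This does not apply to C1qa, since chromosome 4 was searched. The letters were found in 4 of the 7 (C1qb, C1qc, Cd68 and Mrc1) and in 23.3% of all 32851 promoter windows of that length. Only Mrc1 held them more than once, with 3 matches, and 3.54% of all windows held at least 2. The windows shown are those of C1qb, Mrc1 and Lyz2, which each have a probe set in the group that varied together across the arrays (given with the correlations), and of C1qc, the neighbour of C1qb. They run 5′ to 3′ towards the start, with the matches in capitals.
C1qb (chr4:136886201-136886450, minus strand): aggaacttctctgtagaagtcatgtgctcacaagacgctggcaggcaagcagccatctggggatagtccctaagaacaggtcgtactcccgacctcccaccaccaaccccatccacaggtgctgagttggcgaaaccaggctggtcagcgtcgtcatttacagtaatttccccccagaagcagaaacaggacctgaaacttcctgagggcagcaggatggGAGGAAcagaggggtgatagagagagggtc
C1qc (chr4:136892915-136893164, minus strand): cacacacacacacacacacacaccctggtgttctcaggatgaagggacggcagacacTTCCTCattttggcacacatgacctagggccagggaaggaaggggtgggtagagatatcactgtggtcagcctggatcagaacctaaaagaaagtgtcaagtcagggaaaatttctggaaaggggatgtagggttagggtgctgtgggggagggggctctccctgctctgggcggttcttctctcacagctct
Mrc1 (chr2:14229164-14229413, plus strand): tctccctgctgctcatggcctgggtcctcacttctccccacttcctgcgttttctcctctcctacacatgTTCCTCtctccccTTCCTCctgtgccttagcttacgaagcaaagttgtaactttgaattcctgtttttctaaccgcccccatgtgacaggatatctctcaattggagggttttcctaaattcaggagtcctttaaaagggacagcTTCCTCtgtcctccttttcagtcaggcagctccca
Lyz2 (chr10:117282273-117282522, minus strand): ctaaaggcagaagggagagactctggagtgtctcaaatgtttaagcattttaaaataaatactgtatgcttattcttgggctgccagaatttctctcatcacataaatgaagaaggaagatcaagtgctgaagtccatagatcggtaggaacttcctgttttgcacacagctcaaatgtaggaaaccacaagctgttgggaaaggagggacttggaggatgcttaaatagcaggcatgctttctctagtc
A match is only a run of letters, and its absence from the Lyz2, Cd163 and Cx3cr1 windows says nothing about the factor. The matches start 30 bases before the start of C1qb, 193 before that of C1qc, 225 before that of Cd68, and 180, 167 and 35 before that of Mrc1.

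The tissue check held. Th (13.42 ± 0.31 SD after sham, 13.12 ± 0.72 after TAC), Dbh (12.45 ± 0.26 and 12.87 ± 0.23), Pnmt (14.13 ± 0.12 and 14.40 ± 0.11) and Chga (14.18 ± 0.21 and 14.47 ± 0.41), which serve the synthesis and storage of catecholamines, were bright on all arrays (n = 3 each). Genes of the steroid-producing cortex were also present and uneven. Their list mean over 8 tested genes was 10.51 in sham 3 and 9.23 in TAC 1, against 6.65 to 8.10 on the other 4 arrays, with Cyp11b1 at 7.50 ± 2.26 after sham and 6.81 ± 1.44 after TAC and Star at 8.75 ± 2.13 and 7.74 ± 1.57. The RNA length controls also differed between arrays. For Gapdh, the log2 signal of the 3′ control probe set minus that of the 5′ one, which is larger where transcripts are shorter, was 5.15 in sham 1 and 4.71 in TAC 1, and lay between 2.88 and 3.98 on the other 4 arrays (TAC against sham, exact 2-sided permutation p = 0.6, and 3 against 3 arrays cannot go below 0.1).

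Of the 10 genes, 8 had at least 1 probe set at log2 4 or more on at least 3 arrays, whatever the group, and only these were tested. The tested probe sets were 11 of the 15. C1qc, Cd68, 1 probe set of Csf1r and 1 of Cx3cr1 stayed below that filter. In the limma fit, 0 of the 8 genes and 0% of all tested probe sets passed an adjusted p of 0.05. At an unadjusted p under 0.05 there was 1 of the 8 genes, Csf1r, against 6.94% of all probe sets (4.65% in its direction, higher after TAC). That call was lost when the probe sets of a gene were averaged, which left 0 of the 8, against 720 of 12723 entries there. Array weights gave 7 genes, and 8749 of all 18188 probe sets. The replicate number as a block gave 3 genes and 3005 probe sets. Leaving out sham 1 and TAC 1 together gave 3 genes and 2507 probe sets, against 1263 in the main fit. The rest gave 1 or 2 of the tested genes. Beside these stood 641 (without sham 2) to 3843 (Gapdh difference as a covariate) of the 18188 probe sets. Without the filter it was 2110 of 45037 probe sets, and with a mean of at least log2 6 it was 905 of 11028. After TAC 4 genes lay higher and 4 lower, where 54.7% of all probe sets lay higher (43.4% without the filter and 43.7% with array weights). The median difference was -0.002 over the 8 genes, and with 1 array left out it ran from -0.15 (sham 1) to 0.55 (TAC 1), with 0.39 when sham 2 was left out. Over all tested probe sets it was 0.05, and -0.06 to 0.13 with 1 array left out. The median SE of 0.39 over all tested probe sets shows how coarse 3 against 3 arrays are. In dissected tissue, a lower reading from fewer macrophages and one from less RNA per macrophage cannot be told apart.

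**Figure D1:**
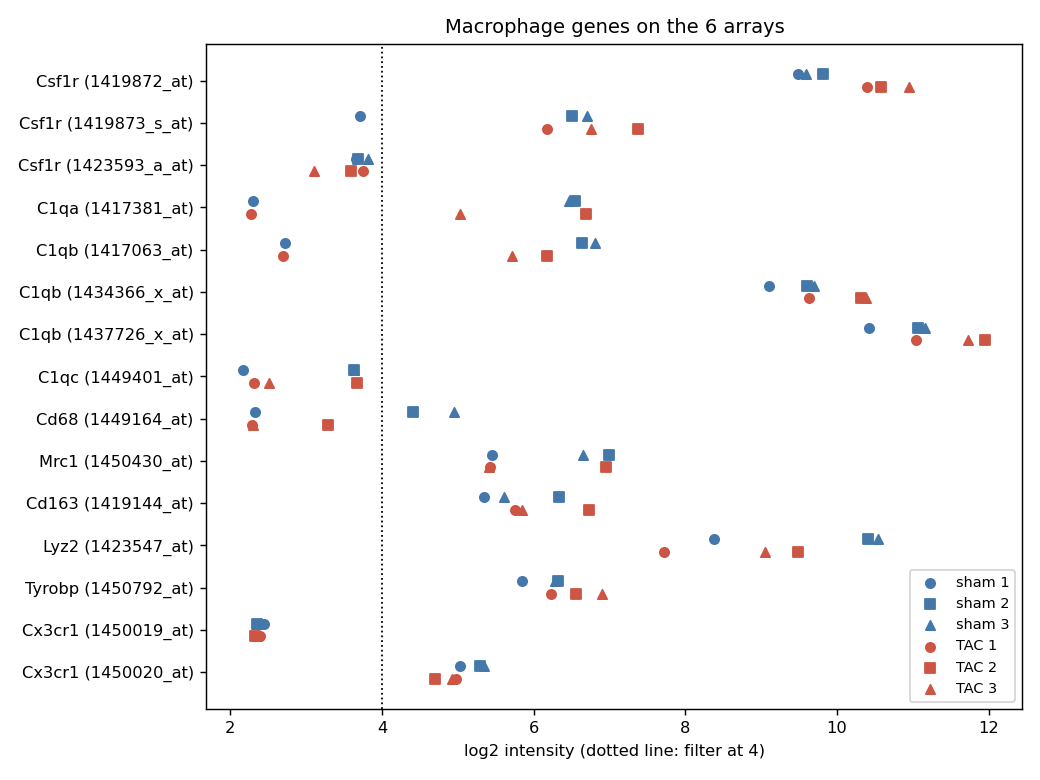
Log2 intensity (horizontal axis) of the 15 probe sets of the 10 macrophage genes, 1 point per array, blue for sham and red for TAC, with the marker shape giving the replicate number and a dotted line at the filter of log2 4. For Csf1r (1419872_at) all TAC points, from 10.40 to 10.94, lie right of all sham points, while C1qa and C1qb (1417063_at) are below 3 in sham 1 and TAC 1 only.

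Csf1r, the growth factor receptor that defines the lineage, was read by 3 probe sets that did not give 1 picture. The brightest of them (1419872_at) measured 9.48, 9.82 and 9.59 in sham 1 to 3 and 10.40, 10.58 and 10.94 in TAC 1 to 3. Every TAC array lay above every sham array, as was the case for 9.01% of all tested probe sets. The means were 9.63 ± 0.17 (SD, n = 3) and 10.64 ± 0.28, a 2.01-fold difference of 1.01 ± 0.25 SE with a 95% interval from 0.40 to 1.62. Its limma adjusted p was 0.475. A second probe set (1419873_s_at), whose suffix marks probes shared by several transcripts, measured 3.71, 6.51 and 6.70 after sham and 6.17, 7.37 and 6.76 after TAC. Here the groups overlapped, sham 1 was the lone array below the filter, and the difference was 1.13 ± 0.85 SE (limma adjusted p = 0.934). The third (1423593_a_at) was below log2 4 on all 6 arrays, from 3.11 to 3.82, and was not tested.

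Of the C1q chains, which make up the complement recognition molecule, C1qa and 1 probe set of C1qb showed the widest spread between arrays. C1qa measured 2.29, 6.55 and 6.46 after sham and 2.27, 6.69 and 5.02 after TAC. Replicate 1 of each group thus lay below log2 4 and far below the other arrays, and the groups overlapped (difference -0.44 ± 1.55 SE, 95% interval -4.21 to 3.33, limma adjusted p = 0.997). C1qb was read by 3 tested probe sets of 2 kinds. The first (1417063_at) followed C1qa, with 2.72, 6.64 and 6.80 after sham and 2.69, 6.18 and 5.71 after TAC (-0.53 ± 1.41 SE, adjusted p = 0.990). The other 2 (1437726_x_at and 1434366_x_at), whose suffix marks probes that can also bind other transcripts, varied far less. The brightest, 1437726_x_at, stood for C1qb in the counts and measured 10.43, 11.06 and 11.16 after sham and 11.04, 11.95 and 11.73 after TAC. Only TAC 1 lay within the sham range, and the difference of 0.69 ± 0.35 SE (1.62-fold, 95% interval -0.16 to 1.55) had a limma adjusted p of 0.812. Its partner 1434366_x_at measured 9.10, 9.60 and 9.69 against 9.62, 10.32 and 10.38 (0.64 ± 0.32 SE, adjusted p = 0.799). The probe sets of C1qb therefore differed in sign as well as in spread. C1qc was below log2 4 everywhere, at 2.17, 3.63 and 3.63 after sham and 2.32, 3.67 and 2.51 after TAC, and was lowest in the same arrays as C1qa.

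Tyrobp encodes the adaptor DAP12, through which Trem2 and other receptors of macrophages signal. It measured 5.84, 6.33 and 6.28 after sham and 6.22, 6.55 and 6.90 after TAC. The groups overlapped in TAC 1 alone, and the difference was 0.41 ± 0.28 SE (95% interval -0.28 to 1.09, limma adjusted p = 0.922).

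The scavenger receptor genes had no common direction. Mrc1, the mannose receptor, measured 5.44, 6.99 and 6.64 after sham and 5.43, 6.95 and 5.41 after TAC (-0.43 ± 0.59 SE, limma adjusted p = 0.980). TAC 1 and TAC 3 lay at the level of the lowest sham array and TAC 2 at that of the highest. Cd163, the receptor for haemoglobin bound to haptoglobin, measured 5.34, 6.33 and 5.60 after sham and 5.76, 6.73 and 5.85 after TAC (0.35 ± 0.40 SE, adjusted p = 0.980). Replicate 2 was the highest array of its group for both genes.

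Lyz2 had a difference below 0 with a wide error, and Cd68 was too dim to test. Lyz2, the lysozyme of macrophages and neutrophils, measured 8.38, 10.41 and 10.54 after sham and 7.71, 9.48 and 9.05 after TAC. All TAC arrays lay below sham 2 and sham 3, and sham 1 lay among the TAC arrays, so that the difference of -1.03 ± 0.74 SE (2.04-fold, 95% interval -2.82 to 0.77) had a limma adjusted p of 0.931. Lyz2 has a close copy, Lyz1, and their transcripts can share probes. The 2 tested probe sets of Lyz1 (both _x_at) differed by -0.58 ± 0.58 SE and -0.56 ± 0.53 SE and were also lowest in sham 1 and TAC 1, while the third (1450822_at) lay between 2.59 and 2.71 on all arrays. Cd68 reached the filter in 2 sham arrays only, with 2.33, 4.41 and 4.95 after sham and 2.28, 3.29 and 2.30 after TAC, and was not tested. Its computed difference of -1.27 became -0.45 when values under log2 4 were set to 4.

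Cx3cr1, the receptor for the membrane-bound chemokine Cx3cl1, was the only gene whose TAC arrays all lay below the sham arrays, as was the case for 4.01% of all tested probe sets. Its tested probe set (1450020_at) measured 5.03, 5.29 and 5.34 after sham and 4.97, 4.69 and 4.92 after TAC. The difference was small, at -0.36 ± 0.23 SE (1.28-fold, 95% interval -0.91 to 0.19, limma adjusted p = 0.893), and the gap between TAC 1 and sham 1 was under 0.1. The other probe set (1450019_at) lay between 2.33 and 2.44 on all 6 arrays, where no expression can be read.

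**Figure D2:**
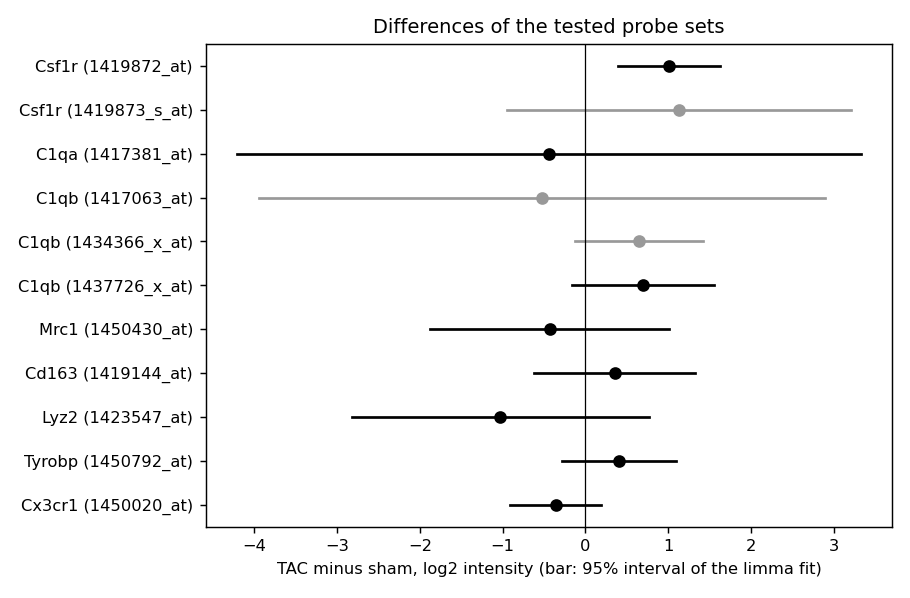
TAC minus sham in log2 intensity (horizontal axis) for the 11 tested probe sets, with bars for the 95% interval of the limma fit; black marks the probe set that stands for its gene and grey the others. Only the interval of Csf1r (1419872_at), from 0.40 to 1.62, lies clear of 0, and those of C1qa and C1qb (1417063_at) span over 6 log2 units.

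Across the 6 arrays 8 of the 11 tested probe sets could be placed in 2 groups, which were picked after their values were seen. C1qa, C1qb (1417063_at), Lyz2 and Mrc1 varied together, with Pearson correlations from 0.78 to 0.98 between their probe sets, as a description over 6 arrays in which the probe sets read the same RNA. C1qa and C1qb (1417063_at) were under log2 4 in sham 1 and TAC 1, so their correlations rest partly on readings too low for a level. Csf1r (1419872_at), both _x_at probe sets of C1qb and Tyrobp formed the other group, with correlations from 0.80 to 0.98. Across the groups C1qa correlated with Csf1r at 0.09 and with Tyrobp at 0.53, and Lyz2 with Csf1r at -0.29. Between C1qb (1417063_at) and the _x_at probe sets of C1qb itself, the correlations were 0.59 (1437726_x_at) and 0.54 (1434366_x_at). The other 3 tested probe sets belonged to neither group. Csf1r 1419873_s_at correlated with C1qa at 0.74 and with C1qb 1437726_x_at at 0.87, Cd163 with the 8 placed probe sets at 0.36 (Lyz2) to 0.72 (C1qb 1437726_x_at), and Cx3cr1 with them at -0.71 (Csf1r 1419872_at) to 0.55 (Lyz2).

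The first group was low in sham 1 and TAC 1, the arrays with the largest 3′ to 5′ difference of Gapdh. Mrc1 was as low in TAC 3 (5.41) as in TAC 1 (5.43). Relative to the mean of the other 2 arrays of its group, Lyz2 stood at -2.10 in sham 1 and -1.55 in TAC 1, and Mrc1 at -1.38 and -0.75. C1qa and C1qb (1417063_at) were under log2 4 in both arrays, too low to read a level, so the size of their drops has only a lower bound. With such values set to 4 they came to -2.50 and -1.86 for C1qa and -2.72 and -1.95 for C1qb (1417063_at). In the second group the same values were -0.22 and -0.36 for Csf1r, -0.46 and -0.50 for Tyrobp, -0.69 and -0.80 for C1qb 1437726_x_at and -0.55 and -0.73 for C1qb 1434366_x_at, so that in TAC 1 C1qb 1437726_x_at stood about as low as Mrc1. All tested probe sets had medians of -0.46 and -0.26. Sham 1 and TAC 1 were both the lowest arrays of their groups at 9 of the 11 tested probe sets, against 44.1% of all tested probe sets. With 1 probe set per gene, the brightest, it was 6 of the 8 genes. The part of RNA length in these values was not tested. In a fit with the Gapdh difference as a covariate, added after the data were seen, C1qa differed by 0.50 ± 0.59 SE (limma adjusted p = 0.671), Lyz2 by -0.58 ± 0.25 SE (0.257) and Mrc1 by -0.14 ± 0.39 SE (0.875). Csf1r differed by 1.06 ± 0.21 SE (adjusted p = 0.0866), C1qb (1437726_x_at) by 0.86 ± 0.22 SE (0.119) and Tyrobp by 0.51 ± 0.21 SE (0.247). Cd163 differed by 0.50 ± 0.33 SE (adjusted p = 0.438) and Cx3cr1 by -0.32 ± 0.19 SE (0.387). Without sham 1 and TAC 1 together, Csf1r differed by 1.06 ± 0.25 SE (adjusted p = 0.305), C1qb by 0.73 ± 0.22 SE (0.322) and Lyz2 by -1.21 ± 0.26 SE (0.302), while C1qa differed by -0.65 ± 0.60 SE. Lyz2 and Csf1r thus had opposite signs within these 4 arrays too. The RNA length controls still differed by group there. The Gapdh difference was 3.08 and 2.88 in sham 2 and 3, and 3.67 and 3.98 in TAC 2 and 3. That of beta-actin was 3.31 and 3.93, and 4.58 and 5.69. The part of RNA length in the fit of these 4 arrays was not tested.

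**Figure D3:**
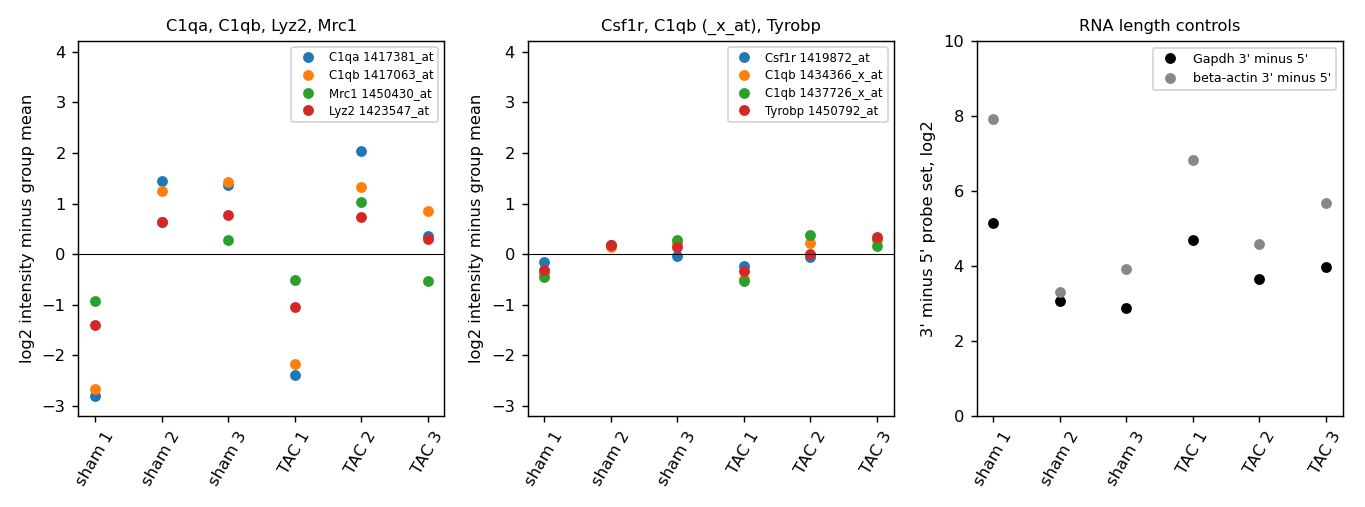
Left and middle, log2 intensity minus the mean of its group on each array for 4 probe sets each; right, for Gapdh (black) and beta-actin (grey), the log2 signal of the 3′ control probe set minus the 5′ one. C1qa and C1qb (1417063_at) are lowest in sham 1 and TAC 1, where the Gapdh difference is 5.15 and 4.71, and the probe sets in the middle panel stay within 0.6 of their group mean.

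The genes outside the list whose pattern was most like that of Csf1r (1419872_at), by Pearson correlation over the 6 arrays, were Zfp384 (0.996), Baz1b (0.994), Wac (0.994), Adm (0.986) and Trim39 (0.985). All 5 differed by 0.43 to 0.78 between the groups, as their likeness to Csf1r entails, and 2.38% of tested genes correlated with it above 0.9. The genes most like the mean of C1qa and C1qb were Pno1, Mfsd5, Pigp, Slc30a1 and Fkbp5, at 0.998 to 0.999, and 21.5% of tested genes correlated with that mean above 0.9. In that mean C1qb was read by 1437726_x_at, which correlated with C1qa at 0.62. C1qa was under log2 4 in sham 1 and TAC 1, so the likeness rests partly on readings too low for a level. None of the 5 genes like it belongs to the immune lists used here. Those lists hold few of the 10181 tested genes, so their absence from the 5 says nothing about the pattern.

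Genes that act with the macrophage markers gave no passing member either. Lists for their growth factors, adaptors, complement partners, chemokines, scavenger receptors, lysosomes and antigen presentation together held 61 tested genes, of which 0 passed an adjusted p of 0.05 in limma (0% of all probe sets) and 1, Lyve1, had an unadjusted p under 0.05, against 6.94% of all tested probe sets and 2.29% in its direction, lower after TAC. Among growth factors and transcription factors 3 of 5 tested genes lay higher (median 0.13, and -0.35 without TAC 2). Csf1, a ligand of Csf1r, measured 5.94 ± 0.22 (SD) after sham and 6.33 ± 0.59 after TAC (0.39 ± 0.35 SE, adjusted p = 0.953), and Csf2ra, a receptor chain for GM-CSF, differed by 0.69 ± 0.30 SE (adjusted p = 0.732). Spi1, which encodes PU.1, and Il34, the other ligand of Csf1r, were below the filter and not tested. Of the partner receptors and kinases of Tyrobp 3 of 7 lay higher (median -0.26, and 0.25 without TAC 1). The Fc receptor gene Fcgr3 measured 4.23, 6.05 and 6.37 after sham and 4.24, 5.44 and 4.25 after TAC (-0.90 ± 0.66 SE, adjusted p = 0.934), and Laptm5, a lysosomal protein of blood cells, differed by 0.47 ± 0.44 SE (adjusted p = 0.957). Trem2 stayed below the filter.

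Complement genes outside C1q lay lower in 7 of 9 cases (median -0.22, and 0.12 without TAC 1 and 0.03 without sham 3), with Cd59a, an inhibitor of the membrane attack complex, at -0.39 ± 0.24 SE (limma adjusted p = 0.888) and C2 at 0.57 ± 0.38 SE (adjusted p = 0.904). Of the chemokines and their receptors 2 of 6 lay higher (median -0.003, and -0.20 to 0.05 with 1 array left out). Cxcl16, a chemokine and scavenger receptor of macrophages, was below sham on every TAC array (-0.66 ± 0.34 SE, adjusted p = 0.826), and Cxcl1 differed by -0.24 ± 0.42 SE. Cx3cl1, the ligand of Cx3cr1, was below the filter.

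Scavenger and phagocytic receptors lay lower in 9 of 13 cases (median -0.18, and 0.07 without TAC 1). Lyve1, which marks lymphatic vessels and a subset of resident macrophages, measured 4.07, 5.78 and 5.05 after sham and 3.25, 3.86 and 3.97 after TAC. All its TAC arrays were under log2 4, so it entered the test only through its 3 sham arrays, the group where it lay higher. A call lower after TAC was thus favoured by the filter. The difference of -1.27 ± 0.48 SE (adjusted p = 0.684) is unreliable in size, and it was -0.96 with such values set to 4. Gas6, a bridging ligand for phagocytosis, differed by -0.88 ± 0.57 SE (adjusted p = 0.904). Lysosomal genes lay lower in 9 of 15 cases (median -0.20, and 0.23 without TAC 1 and 0.09 without sham 2), and 14 of the 15 were lowest in both sham 1 and TAC 1. Psap, the precursor of the saposins, measured 11.88 ± 0.80 (SD) and 11.12 ± 0.52 (-0.76 ± 0.49 SE, adjusted p = 0.898), and Grn, which encodes progranulin, 12.39 ± 0.12 and 12.67 ± 0.17 (0.29 ± 0.22 SE, adjusted p = 0.939). Of the antigen presentation genes 2 of 6 lay higher (median -0.23), with H2-Ab1 at -1.02 ± 0.93 SE and B2m at -0.37 ± 0.39 SE (adjusted p = 0.957 and 0.975). Lysosomal and presentation genes are expressed by other cells of the medulla too.

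**Figure D4:**
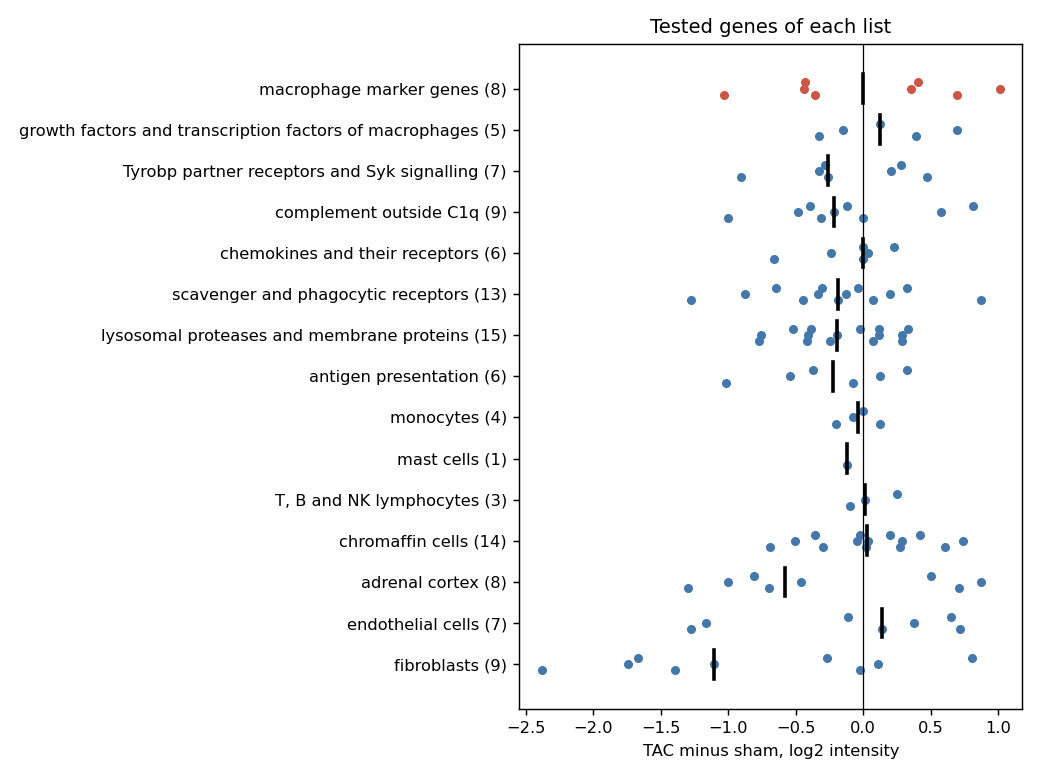
TAC minus sham in log2 intensity (horizontal axis) for every tested gene of each list, 1 point per gene, with a black bar at the list's median and the number of tested genes in brackets. The 8 macrophage genes in red straddle 0 with a median of -0.002, and no gene in any list passed an adjusted p of 0.05.

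Markers of other blood cells were mostly below the filter. Of the neutrophil genes named on the array, which include S100a8 and S100a9, 0 of 11 passed it, and of the red blood cell genes 0 of 5. Of the lymphocyte genes 3 of 13 were tested, among them Gzma (0.25 ± 0.30 SE) and Cd4 (-0.10 ± 0.28 SE), and the list mean lay between 4.18 and 4.61 after sham and between 4.32 and 4.58 after TAC. Of the mast cell genes 1 of 9, Hdc (-0.12 ± 0.31 SE), was tested. Of the monocyte genes 4 of 9 were tested, with Vcan at -0.21 ± 0.41 SE and S100a4 at -0.07 ± 0.49 SE. The mean of the 8 tested macrophage genes was 6.53, 7.85 and 7.70 after sham and 6.72, 7.95 and 7.48 after TAC.

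Among the other tissue cells, fibroblast genes stood lower after TAC in 7 of 9 cases (median -1.11, and -1.34 to -0.93 with 1 array left out). Without the filter the median was -0.20 over 12 genes. Dpt differed by -1.11 ± 0.31 SE (limma adjusted p = 0.527) and Pdgfrb by 0.81 ± 0.22 SE (adjusted p = 0.514). Endothelial genes had a median of 0.14 over 7 tested genes (0.01 to 0.48 with 1 array left out), with Eng at 0.72 ± 0.38 SE and Tek at -1.17 ± 0.65 SE. Chromaffin genes had a median of 0.03 over 14 tested genes (-0.09 to 0.26 with 1 array left out), with Hand2 at 0.74 ± 0.24 SE and Slc18a2 at -0.69 ± 0.33 SE. Cortex genes had a median of -0.58 over 8 tested genes, which turned to 0.93 without sham 3 and to 0.26 without TAC 3, with Fdx1 at 0.71 ± 0.62 SE and Scarb1 at 0.87 ± 0.82 SE. For each of the 14 lists with a tested gene other than the macrophage list, the list means of the sham arrays overlapped those of the TAC arrays. The part of these cells in the macrophage values was not tested.

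Csf1r, C1qb, Tyrobp, Lyz2, Mrc1 and Cx3cr1 kept the sign of their difference under each alternative run, and C1qa and Cd163 did not. For C1qb this holds for 1437726_x_at. Its probe set 1417063_at differed by -0.53, and the average of its probe sets by 0.27. Over 18 alternatives, Csf1r lay between 0.86 and 1.20, C1qb between 0.27 and 0.96, Tyrobp between 0.24 and 0.57, Lyz2 between -1.73 and -0.51 and Mrc1 between -1.29 and -0.12. C1qa lay between -1.84 and 0.76 and thus on both sides of 0. With array weights, which limma estimates from how well each array follows its group, 6 of the 8 genes passed an adjusted p of 0.05 (Csf1r, C1qb, Tyrobp, Mrc1, Lyz2 and Cx3cr1). The weights were 0.143, 2.73 and 2.96 for sham 1 to 3 and 0.396, 0.357 and 6.11 for TAC 1 to 3, so TAC 3 made up most of the TAC mean, and 6698 of the 18188 probe sets passed there. Cd163, Mrc1 and Lyz2 also moved with single arrays. Cd163 was 0.04 without TAC 2, 0.15 without sham 1 and 0.64 without sham 2. Mrc1 was -0.12 without sham 2, -0.18 without TAC 1, -0.17 without TAC 3, -0.89 without sham 1 and -0.95 without TAC 2, and Lyz2 was -1.73 without sham 1 and -0.51 without TAC 1.

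**Figure D5:**
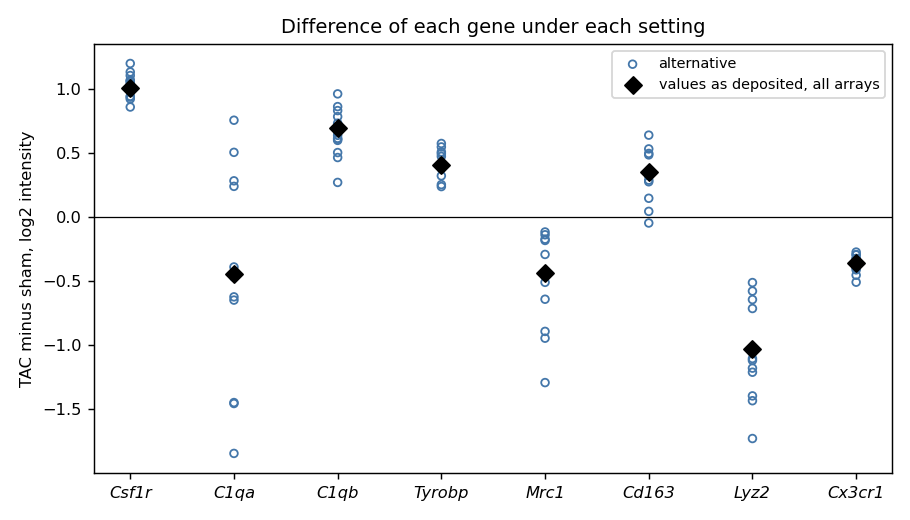
TAC minus sham in log2 intensity (vertical axis) for the 8 tested genes, with a black diamond for the values as deposited on all 6 arrays and an open circle for each alternative. Csf1r stays between 0.86 and 1.20, and C1qa lies on both sides of 0.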

How the data were processed

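Adrenal medulla RNA of 3 mice after TAC and 3 after sham surgery was measured on 6 arrays. The deposited values are linear intensities per probe set, 1 column per array, which the authors processed with GCRMA, per the submitters' processing notes, which name neither a version nor settings (not given in the sources used here). GCRMA corrects the background from probe sequence. Here log2 was taken with no further normalization. Probe sets that reached log2 4 on 3 or more of all 6 arrays, in whichever group, were compared between groups with limma 3.58.1 in R 4.3.3, with Benjamini-Hochberg adjustment over all 18188 and a threshold of 0.05. The number of arrays limits the precision. Symbols come from the platform annotation, where 34945 of the 45101 probe sets have 1 symbol, 932 several and 9160 none and 64 are controls; the brightest probe set by mean over the 6 arrays stood for a gene.

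The macrophage genes and all lists were chosen with earlier results of these data known. The text names every probe set of the 10 genes, for each other list the 2 tested genes of lowest p, 6 tissue markers, and the 5 genes most correlated with Csf1r and with the mean of C1qa and C1qb, and Lyz1 and the untested genes were named after their values were seen. The labels do not say whether a replicate number pairs animals, and the main fit took the arrays as unpaired. Deviations from the group means correlated at 0.76, 0.78 and -0.22 between same-numbered arrays. Such deviations add to 0 within a group, so these values cannot settle the pairing. The fit was tested on simulated data.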

Additional observations from a re-analysis of the deposited data

How the results depend on the processing

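The differences of Csf1r, C1qb, Tyrobp, Lyz2, Mrc1 and Cx3cr1 kept their direction under the alternatives run (median centring, quantile and cyclic loess normalization, no filter, a mean of at least log2 6, a floor at log2 4, array weights, a mean-variance trend, averaged probe sets, the replicate block, each array left out, sham 1 and TAC 1 left out together, and the Gapdh covariate), though the filter at log2 6 left out Cx3cr1, C1qa and Cd163. For C1qb these are values of 1437726_x_at, or of averaged probe sets, and 1417063_at had the other sign. C1qa turned to 0.28 without sham 2, 0.24 without sham 3, 0.76 without TAC 1 and 0.50 with the Gapdh covariate, and its range with 1 array left out was -1.84 to 0.76. Cd163 turned to -0.046 with array weights (adjusted p = 0.903). Array weights in limma were the lone alternative with any calls, 6698 probe sets and 6 macrophage genes, and they lowered the share of all probe sets with a difference above 0 from 54.7% to 43.7%; without a filter that share was 43.4%. The cause of these changes was not tested. With the replicate number as a block (replicate block), 0 probe sets and 0 macrophage genes passed, with limma adjusted p of 0.206 for Csf1r, 0.235 for C1qb and 0.208 for Lyz2, and 3005 probe sets had an unadjusted p under 0.05 against 1263 without it. Sham 3 correlated best with TAC 2 (0.71), not with its own number. Signal near background limits C1qc, Cd68, C1qa, C1qb (1417063_at), Csf1r (1423593_a_at, and 1419873_s_at in sham 1) and the second Cx3cr1 probe set.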
